A study of Mus musculus with 3 samples.

Results

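*T* (*Brachyury*), *Eomes*, *Mixl1*, *Evx1*, *Tbx6*, *Mesp1*, *Mesp2*, *Snai1*, *Twist1* and *Meox1* are transcription factor genes of the primitive streak and of the mesoderm that leaves it. They were taken by name as the rows of the array table that carry these symbols, and all 10 were present among 30854 symbols. Wild-type embryos of strain Cd-1 at the early headfold (EHF) stage were cut at the junction with the extraembryonic region, and RNA was taken from the embryonic portion. It was hybridized to 3 Illumina Mouse-6 bead arrays, replicates 1, 2 and 3, which are the only group, so the arrays compare neither genotypes nor stages. The label of the stock reads Cd-1, whereas the methods of the study name ICR, and neither states whether an array holds 1 embryo or a pool. The p-values therefore refer only to these 3 samples, whose differences may be technical.

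The primitive streak is the posterior site at which epiblast cells lose their epithelial form and move inward as mesoderm and definitive endoderm. Wnt, Nodal and Fgf signals turn on T-box genes there. These act with homeobox genes to specify the cells that ingress, while Snail and Twist factors belong to the machinery of the epithelial-mesenchymal transition. By the headfold stage the streak is still present posteriorly, the cardiac mesoderm has moved forward, and paraxial mesoderm lies beside the midline.

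For each symbol the deposited table gives a log2 signal, averaged over its bead-bound probes, and a detection p-value. For a symbol with 1 probe this is the share of the array's negative controls that were at least as bright. For a symbol with several probes it is a combined value of the probes and not such a share. The signals were not normalized between arrays, and their medians were 6.57, 6.51 and 6.42 on replicates 1, 2 and 3. A gene was called above background where the detection p was under 0.01 on all 3 arrays, and the background level of an array, the lowest single-probe signal that passed, was 6.69, 6.66 and 6.58. Between 7191 and 9015 symbols passed on single arrays. The number of arrays limits the precision of every value. Signals of different probes cannot be compared as amounts of RNA, so each gene was compared with background and with itself between arrays.

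Of the 10 regulators, 7 were called above background, *T*, *Evx1*, *Mixl1*, *Tbx6*, *Mesp1*, *Meox1* and *Twist1*, where 20.6% of all symbols were called. *Snai1* passed on 2 arrays. *Eomes* and *Mesp2* passed on no array. A second test gave levels with an error. Signals were background-corrected, quantile normalized and set against the background level of the same array, and limma's one-sided test called 8 of the 10, the same 7 and *Snai1*, where 25.7% of all symbols were called. The fit of limma gave every symbol the same standard error of 0.15, which does not reflect a gene's own spread, so the largest adjusted p over 9 other settings is given beside each level. RNA of the whole region was measured, so fewer cells of a type and less RNA per cell cannot be told apart.

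**Figure D1:**
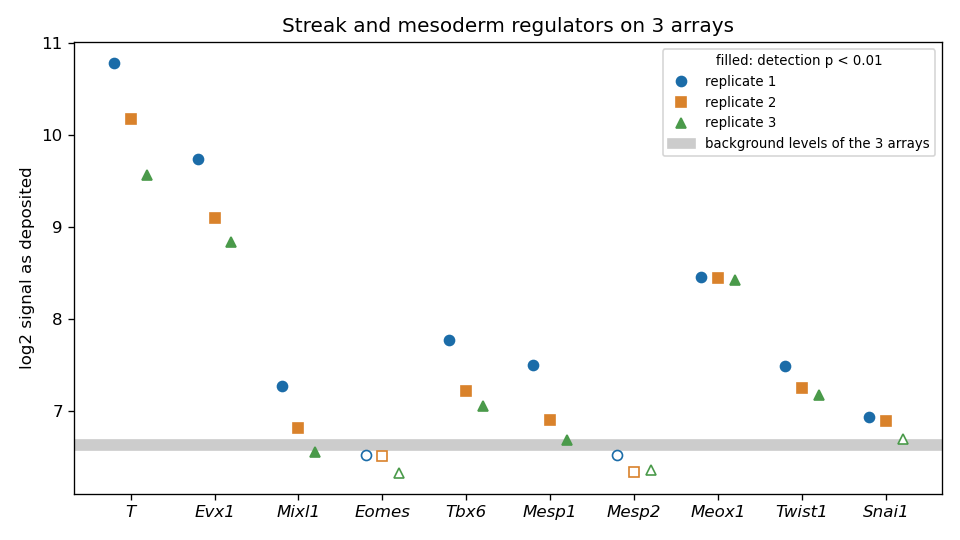
Log2 signal as deposited (vertical axis) of the 10 regulators on replicates 1, 2 and 3 (circles, squares and triangles, 1 point per array). Filled points have a detection p under 0.01 and the grey band spans the background levels of the arrays, from 6.58 to 6.69. *T* and *Evx1* lie far above the band on every array, *Meox1* has nearly equal signals, and *Eomes* and *Mesp2* lie below the band.

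*T*, the founding T-box factor, is required for axial and posterior mesoderm. Its log2 signals were 10.78, 10.17 and 9.56 on replicates 1, 2 and 3, from 35, 49 and 40 beads, with a detection p of 0 on each. The signal was highest on replicate 1 and lowest on replicate 3. The error over beads within an array, which covers neither the shift between arrays nor the variation between samples, was 0.06, 0.09 and 0.10 on the log2 scale. After normalization *T* stood 5.73, 5.17 and 4.76 above background, a mean of 5.22 (standard error 0.15, n = 3), with an adjusted p from limma of at most 0.000426.

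*Evx1*, a homeobox gene of the posterior streak, gave 9.73, 9.10 and 8.84, also with a detection p of 0 throughout. Replicate 1 was again highest. The errors over beads were 0.08, 0.06 and 0.13. The normalized level was 4.18 above background (standard error 0.15, n = 3), with a largest adjusted p from limma of 0.000431.

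*Mixl1*, a paired-type homeobox gene of streak cells that form mesendoderm, was close to background. Its signals were 7.27, 6.82 and 6.56, averaged over at least 2 probes, with detection p-values of 0, 2.28e-06 and 0.00483. On replicate 3 the mean signal lay below the background level of 6.58, although the combined detection p of its probes passed. Its normalized level was 0.56 above background (standard error 0.15, n = 3, adjusted p from limma 0.000315). That call rested on replicate 1, since without it the level was 0.17 and the adjusted p 0.598. Without replicate 3 the level was 0.99. The call was also lost without normalization (adjusted p 0.244) and with median scaling (adjusted p 0.254).

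*Eomes*, a T-box gene needed for the first mesoderm and for definitive endoderm, is also a gene of the trophoblast. The signals were 6.53, 6.51 and 6.33 over at least 2 probes, with detection p-values of 0.295, 0.109 and 0.864. No array came near the threshold, and the normalized level was -0.53 relative to background. Of 9 genes listed as markers of extraembryonic ectoderm, 4 were called (*Cdx2*, *Ets2*, *Rhox5* and *Tfap2c*). The tissue that these 4 transcripts came from was not tested. *Esrrb* passed on 1 array, and *Elf5*, *Ascl2*, *Gcm1* and *Tead4* passed on no array. A transcript present in few cells may not be detectable at this sensitivity.

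*Tbx6*, the T-box gene that holds presomitic cells to a mesodermal fate, was called with signals of 7.78, 7.22 and 7.06 over at least 2 probes. Detection p-values were 0, 5.71e-07 and 0.000781. Replicate 1 was highest and the other arrays lay closer together. The level above background was 1.63 (standard error 0.15, n = 3), with an adjusted p from limma of at most 0.0138.

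*Mesp1* and *Mesp2* encode closely related basic helix-loop-helix factors, and in the RefSeq gene table no gene lies between them on chromosome 7. *Mesp1* marks nascent mesoderm with cardiac fate, and *Mesp2* sets the borders of forming somites. *Mesp1* gave 7.50, 6.90 and 6.69 with a detection p of 0 on each array. Replicate 1 was highest, and the errors over beads were 0.07, 0.06 and 0.06. *Mesp2* gave 6.52, 6.34 and 6.37, with detection p-values of 0.401, 0.936 and 0.566. The pair thus differed in detection on every array, although their probes cannot be compared as amounts. The normalized level of *Mesp1* was 0.94 above background (standard error 0.15, n = 3), and 0.50 without replicate 1. Its adjusted p from limma reached 0.120 without normalization and 0.105 with median scaling, settings in which this call was lost. The level of *Mesp2* was -0.58.

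*Meox1*, a homeobox gene of paraxial mesoderm and early somites, had signals of 8.46, 8.44 and 8.43, each with a detection p of 0. The errors over beads were 0.07, 0.09 and 0.13. The SD of the deposited signals was 0.02, but that of the normalized levels was 0.37, and 9.41% of called symbols had one at least as large. After normalization *Meox1* stood 3.26 above background (standard error 0.15, n = 3), with an adjusted p from limma of at most 8.54e-05.

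*Twist1*, a basic helix-loop-helix factor of mesenchymal mesoderm and cranial mesenchyme, gave 7.49, 7.26 and 7.17, again with a detection p of 0 throughout. The arrays lay within 0.32 of each other. The level was 1.58 above background (standard error 0.15, n = 3), with a largest adjusted p from limma of 0.000964. *Snai1*, the zinc finger repressor of E-cadherin in ingressing cells, gave 6.93, 6.89 and 6.69 over at least 2 probes. Its detection p-values of 0.00234 and 0.00179 on replicates 1 and 2 passed, and 0.0233 on replicate 3 did not. The limma level was 0.57 above background (standard error 0.15, n = 3, adjusted p 0.000281, at most 0.0480 over the other settings).

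The sequences before the gene starts are shown for *T*, a T-box gene of the streak that was called under every setting run, and for the *Mesp1* and *Mesp2* pair, which differed in detection. They are the 250 bases upstream of the start in RefSeq, build GRCm38.p6, written in the direction of the gene. *T* lies at chr17:8434173-8434422 on the plus strand, *Mesp1* at chr7:79793591-79793840 on the minus strand and *Mesp2* at chr7:79810477-79810726 on the plus strand. Capitals mark matches, on either strand, to letters bound by TCF/LEF factors of Wnt signalling (CTTTGAA or CTTTGAT), to the Snail-type E-box (CAGGTG), to a T-box half-site (GGTGTGA) or to the TATA box (TATAAA). The E-box and the half-site share letters and could overlap.
*T*: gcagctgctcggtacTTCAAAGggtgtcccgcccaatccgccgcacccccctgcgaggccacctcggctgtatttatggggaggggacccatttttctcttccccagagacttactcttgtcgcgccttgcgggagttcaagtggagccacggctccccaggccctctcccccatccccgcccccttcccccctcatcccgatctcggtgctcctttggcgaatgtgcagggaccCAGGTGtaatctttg
*Mesp1*: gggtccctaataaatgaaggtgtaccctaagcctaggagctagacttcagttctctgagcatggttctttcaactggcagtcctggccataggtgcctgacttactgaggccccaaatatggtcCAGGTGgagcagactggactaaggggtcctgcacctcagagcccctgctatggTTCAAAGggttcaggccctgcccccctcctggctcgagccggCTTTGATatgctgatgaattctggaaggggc
*Mesp2*: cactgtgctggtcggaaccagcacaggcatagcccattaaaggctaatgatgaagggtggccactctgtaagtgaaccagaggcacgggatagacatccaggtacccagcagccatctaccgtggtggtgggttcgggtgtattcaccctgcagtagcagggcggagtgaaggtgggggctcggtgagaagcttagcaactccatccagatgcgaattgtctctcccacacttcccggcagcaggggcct

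The window of *T* held 1 TCF/LEF match, which began 235 bases before the start, and that of *Mesp1* held 2, which began 73 and 31 bases before it. No match of these 4 kinds was found in the window of *Mesp2*. Windows of 8 regulators were matched by symbol, and a TCF/LEF match was found in 2 of them, against 7.48% of 32851 windows of the same length. The E-box letters were found in 4, those of *T*, *Evx1*, *Mesp1* and *Snai1*, against 17.2% of all windows. The TATA letters were found in *Tbx6* and *Twist1*, against 12.4%, and the T-box letters in none, against 3.33%. These are matches of letters, which say nothing of binding.

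The arrays differed in the levels of several regulators. Before normalization all 7 called regulators were highest on replicate 1 and lowest on replicate 3, but so were most genes, with 84.9% of called symbols highest on replicate 1 and 93.4% lowest on replicate 3. After quantile normalization 5 of the 7 were highest on replicate 1, *T*, *Evx1*, *Mixl1*, *Tbx6* and *Mesp1*, where 29.4% of called symbols were. *Meox1* and *Twist1* were highest on replicate 3. When the deposited signals were instead centred on the array medians, the same 5 genes and *Twist1* were highest on replicate 1, and *Meox1* on replicate 3. *Snai1*, called by limma only, was highest on replicate 3 after quantile normalization and on replicate 2 with the centred signals. Each array is 1 sample, so these differences carry no test.

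On the normalized log2 scale replicate 1 exceeded the mean of the other arrays by 0.92 for *Mesp1* and by 0.88 for *Mixl1*. The excess was 0.55 for *Tbx6*, 0.51 for *T* and 0.39 for *Evx1*. The same difference was -0.06 for *Twist1* and -0.48 for *Meox1*. Over the 7 genes the median was 0.51, beside -0.01 for all 6357 called symbols, whose 5th and 95th percentiles were -0.40 and 0.44. With the centred signals the medians were 0.54 for the regulators and 0.22 for all called symbols. On that scale *T* was 0.81, *Evx1* 0.66, *Mesp1* 0.60, *Tbx6* 0.54 and *Mixl1* 0.48 above the other arrays on replicate 1, whereas *Twist1*, at 0.17, and *Meox1*, at -0.08, were below the median of called symbols.

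**Figure D2:**
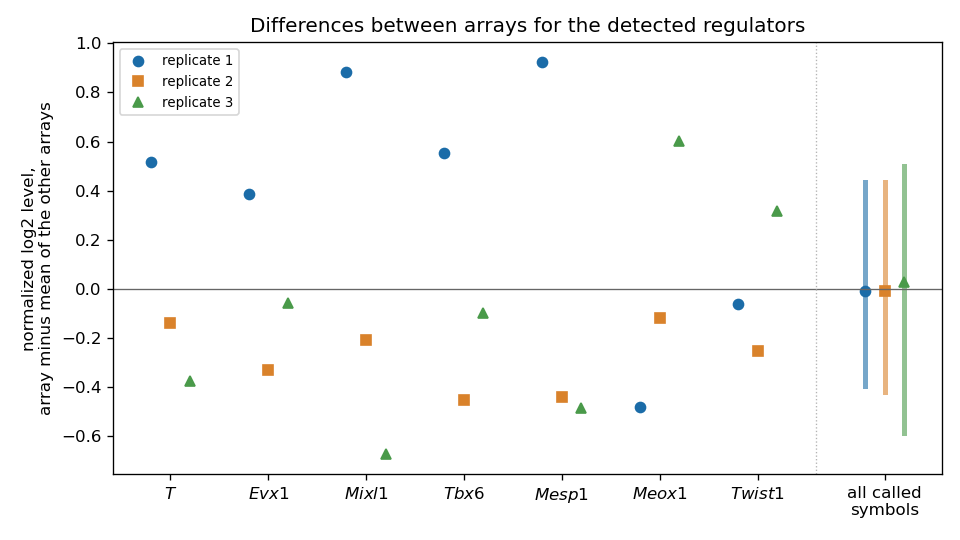
Normalized log2 level of each array minus the mean of the other arrays (vertical axis) for the 7 called regulators, with circles, squares and triangles for replicates 1, 2 and 3. At the right, the points are medians and the bars the 5th to 95th percentiles of all called symbols. Replicate 1 is highest for *T*, *Evx1*, *Mixl1*, *Tbx6* and *Mesp1*, and replicate 3 for *Meox1* and *Twist1*.

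Because a scaling factor is shared by all genes of an array, the change of one gene relative to another depends less on it. Relative to *Meox1*, whose deposited signal hardly varied, the signal on replicate 1 exceeded that on replicate 3 by 1.18 for *T*, 0.86 for *Evx1*, 0.78 for *Mesp1*, 0.69 for *Tbx6* and 0.68 for *Mixl1*, and by 0.29 for *Twist1*. After normalization the same differences were 1.31, 1.02, 1.66, 1.16 and 1.76 for these genes in turn, and 0.47 for *Twist1*. Against replicate 2, the deposited signals gave 0.59 for *T*, 0.62 for *Evx1* and 0.22 for *Twist1*. *Meox1* was taken as the reference after its values were seen, and it was highest on replicate 3 in both the normalized and the centred values. These differences therefore describe the same pattern again and are no further support for it.

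The spread between arrays, as the SD of the normalized level, was 0.53 for *Mesp1*, 0.53 for *Mixl1*, 0.37 for *Meox1*, 0.34 for *Tbx6* and 0.31 for *T*, where the median of called symbols was 0.17. Of all called symbols, 1.84% had an SD at least as large as *Mesp1* and 16.3% at least as large as *T*. *Evx1* (29.4%) and *Twist1* (43.7%) were less unusual. *Mesp1* and *Mixl1* are also the called regulators nearest to background on replicate 3, at 0.41 and -0.10.

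Other genes of gastrulation were grouped in 5 lists. Among the signals that induce the streak and their mediators, 12 of 20 genes on the array were called. *Wnt3a*, a ligand that maintains *T*, gave 9.64 as the mean of its log2 signals (SD 0.41, n = 3), and the Wnt targets *Sp5* and *Axin2* had 9.65 (SD 0.92) and 9.12 (SD 0.38). *Ctnnb1*, which encodes β-catenin, had 9.04 (SD 0.67). *Wnt8a*, *Fgf8*, *Bmp4*, *Foxh1*, *Smad2*, *Tcf7*, *Fgfr1* and *Bmpr1a* were called as well. *Wnt5a* (7.82, SD 0.27) passed on 2 arrays and *Nodal* (6.61, SD 0.13) on 1. *Wnt3*, *Tdgf1*, *Gdf3*, *Fgf3*, *Fgf4* and *Lef1* passed on no array. Limma called *Wnt5a* but neither *Nodal* nor *Tcf7* (adjusted p 0.0938). On replicate 1 *Sp5* was 0.81 above the mean of the other arrays, *Wnt3a* 0.30 and *Axin2* 0.26. The median of the called genes of this list was 0.20, or 0.45 with the centred signals. On the normalized scale 5 of the 12 were highest on replicate 1, 1 on replicate 2 and 6 on replicate 3.

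For the epithelial-mesenchymal transition, 8 of 19 genes were called. *Esrp1*, a splicing factor of epithelial cells listed under its older symbol *Rbm35a*, had 10.08 (SD 0.39, n = 3). *Rac1* had 8.10 (SD 0.09), *Net1* 7.65 (SD 0.17) and *Zeb1*, a repressor of E-cadherin, 7.50 (SD 0.12), and *Snai2*, *Twist2*, *Itga5* and *Has2* were also called. *Cdh1*, which encodes E-cadherin and is the best known target of *Snai1*, had 8.18 (SD 0.39) and *Fn1* 7.97 (SD 0.35). *Cdh1* passed on no array and *Fn1* on 2. Both are averages over several probes, and limma called both but not *Twist2* (adjusted p 0.160).

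Of 18 paraxial mesoderm genes, 9 were called. *Aldh1a2*, the retinoic acid synthesizing enzyme, had 7.88 (SD 0.15, n = 3), the Wnt agonist *Rspo3* 7.84 (SD 0.09), *Foxc1* 7.82 (SD 0.32) and *Nkx1-2* 7.64 (SD 0.46). *Tcf15*, *Foxc2*, *Dll1*, *Cyp26a1* and *Notch1* were also called. The segmentation genes *Hes7* (6.55, SD 0.14) and *Dll3* (6.53, SD 0.22) passed on 1 array. The remaining 7 genes of the list, *Meox2*, *Lfng*, *Ripply2*, *Pax3*, *Uncx*, *Tbx18* and *Pcdh8*, passed on no array.

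Among lateral and cardiac mesoderm genes 10 of 17 were called. *Etv2* (listed as *Etsrp71*), the endothelial and blood regulator, had 9.43 (SD 0.16, n = 3), the cardiac progenitor gene *Isl1* 9.09 (SD 0.19), *Gata6* 9.03 (SD 0.10) and *Lmo2* 8.91 (SD 0.16). *Foxf1*, *Lhx1*, *Tal1*, *Smarcd3*, *Myl7* and *Nkx2-5* were called too. *Pdgfra* (8.14, SD 0.36) passed on 1 array and *Osr1* (7.53, SD 0.32) on none, although limma called both. On the normalized scale 7 of the 10 were highest on replicate 3, and on replicate 1 the median was -0.21 relative to the other arrays, with *Nkx2-5* at -0.81 and *Gata6* at -0.66, but it was 0.06 with the centred signals, where all called symbols had 0.22. Of the called regulators, *T*, *Evx1*, *Mixl1*, *Tbx6* and *Mesp1* lay above the median of called symbols on replicate 1 in both scalings. They had been singled out as highest there, and *Meox1* and *Twist1* lay below it in both scalings.

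Of the 14 T-box genes other than *T*, *Eomes* and *Tbx6*, 2 were called, which is 14.3% and below the share of all symbols. They were *Tbx1* (6.92, SD 0.02, n = 3) and *Tbx3* (6.89, SD 0.26). *Tbx4* (6.60, SD 0.10) and *Tbr1* each passed on 1 array, and 10 passed on none, among them *Tbx20* (6.55, SD 0.09). The regulators *T* and *Tbx6* thus made up 2 of the 4 T-box genes called, while *Eomes*, the other T-box gene among the regulators, passed on no array.

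**Figure D3:**
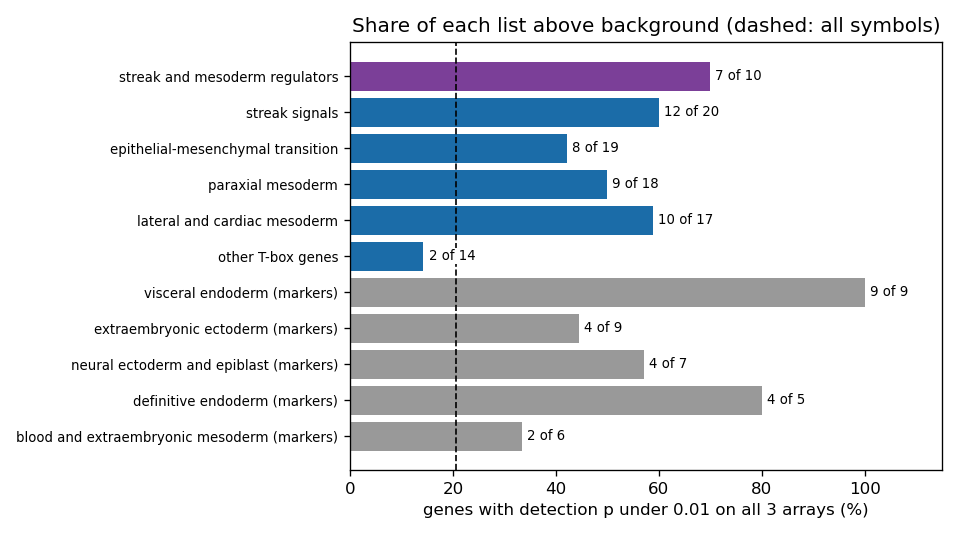
Share of the genes on the array with a detection p under 0.01 on all 3 arrays (horizontal axis, percent), with the counts beside each bar. The regulators are in purple, other gastrulation lists in blue, tissue markers in grey, and the dashed line marks the 20.6% of all symbols.

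Markers of other tissues moved between the arrays in their own way. All 9 visceral endoderm markers were called, and their median on replicate 2 was 0.55 above the other arrays, with a log2 summed level of 12.83, 13.22 and 12.67 on replicates 1, 2 and 3. The extraembryonic ectoderm markers summed to 10.94, 11.06 and 10.57. Of the blood and extraembryonic mesoderm markers 2 of 6 were called, *Tal1* and *Lmo2*, with sums of 8.87, 9.18 and 9.30, and the globins *Hba-x* and *Hbb-bh1* passed on no array. For the epiblast and neural plate 4 of 7 were called, *Dnmt3b*, *Otx2*, *Pou5f1* and *Utf1*, with sums of 12.35, 12.02 and 12.07, and of the definitive endoderm 4 of 5, *Cldn6*, *Trh*, *Sox17* and *Cer1*. In these lists limma called *Sox2* as well, but neither *Utf1* (adjusted p 0.0824) nor *Cer1* (adjusted p 0.259). The 10 regulators summed to 11.37, 11.00 and 11.06. Each sum adds the linear levels of all genes of a list on the array, called or not, so the brightest probes weigh most. On replicate 1 the median normalized difference was 0.51 for the called regulators, -0.11 for the visceral endoderm, -0.37 for blood, 0.15 for extraembryonic ectoderm, 0.10 for definitive endoderm and -0.06 for epiblast and neural markers. With the centred signals these medians were 0.54, 0.18, -0.02, 0.45, 0.31 and 0.27. All called symbols had a median of -0.01 on the normalized and 0.22 on the centred scale. The visceral endoderm and blood medians thus lay below that of all called symbols in both scalings. The medians of extraembryonic ectoderm and definitive endoderm lay above it in both, as did that of the regulators. The median of the epiblast and neural markers lay below that of all called symbols only on the normalized scale. The part of tissue composition and of stage in the differences between arrays was not tested.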

How the data were processed

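Total RNA of the embryonic region of EHF stage embryos was measured on 3 arrays. Replicate numbers are those of the labels. The authors deposited 1 table with, per gene symbol, a log2 signal that was not normalized between arrays and a mean number of beads. The standard error over beads was deposited as an intensity on the linear scale and was set on the log2 scale for genes with 1 probe, and the detection p-value was deposited as well. Per the labels, Partek was used. The array normalization of the study is not given in the sources used here. No value of comparisons by the authors was present, and every column belonged to a sample.

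The number of probes of a symbol was inferred as the smallest (up to 12) that made the bead numbers whole within a tolerance of 0.006, a lower limit. Symbols counted as having 1 probe (21986) also had detection p-values on steps of 1 in 936 within 0.002. For levels, signals were corrected with the normexp model of limma, fitted on the detection p of those symbols, and an offset of 16 was added before quantile normalization and the log2 scale. The test was lmFit with an intercept and eBayes, one-sided, with Benjamini-Hochberg adjustment over all 30854 symbols and a threshold of 0.05. The script was tested on simulated data.

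The regulators and lists were chosen with earlier results of these data known. Genes named are the 10 regulators and, in each list, the called genes and the 2 with the highest signals among the rest. Further uncalled genes were named after their values were seen. Of the listed genes, 5 were matched through older symbols of the RefSeq table of GRCm38.p6, and 3 were not found in the table. A comparison of protein sequences that had been planned was not run. R 4.3.3, limma 3.58.1, Python 3.11.15, numpy 2.4.6, pandas 2.3.3 and matplotlib 3.10.9 were used.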

Additional observations from a re-analysis of the deposited data

How the results depend on the processing

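Between 6 and 8 regulators were above background under the 8 other detection settings. *Mixl1* was lost at a detection p under 0.001, and *Snai1* was gained at 0.05, when 2 arrays or 1 sufficed, in limma and without replicate 3. Leaving out a replicate gave 7 to 8. When 1 array sufficed, 10172 of all symbols were called in place of 6357. The listed genes called numbered 41, between 31 and 55 over these settings and 41 to 44 without a replicate. Over the same settings between 5249 and 10172 of all symbols were called, and between 6524 and 7427 without a replicate. The limma test called 8 regulators, and 6 to 8 over 9 settings (7 to 8 without a replicate), in which between 7219 and 11446 of 30854 symbols were called, against 7940. Of the regulators, *Mesp1* and *Mixl1* were lost without normalization and with median scaling, and *Mixl1* without replicate 1. The levels of *T*, *Evx1*, *Tbx6*, *Meox1*, *Twist1* and *Snai1* passed in all 9. They ranged from 3.52 to 5.77 for *T*, 2.57 to 4.73 for *Evx1*, 1.80 to 3.81 for *Meox1*, 0.69 to 2.18 for *Tbx6*, 0.66 to 2.13 for *Twist1* and 0.19 to 1.12 for *Snai1*, beside 0.36 to 1.49 for *Mesp1* and 0.17 to 1.11 for *Mixl1*. *Eomes* turned to 0.0207 when the background was the median of detection p from 0.4 to 0.6, with no call (adjusted p from limma 0.543). Only the background level differed in that setting, so all regulators rose together, *Mesp2* from -0.58 to -0.04. The median difference of the regulators on replicate 1 was between 0.45 and 0.64 over 3 other settings. On replicate 2 it was -0.25, and -0.12 with centred and -0.10 with deposited signals. On replicate 3 it was -0.10, and -0.37 with centred and -0.49 with deposited signals. The cause was not tested. No paired analysis was possible because all 3 arrays belong to 1 group. Closeness to background limits *Mixl1*, *Mesp1* and *Snai1*, whose levels lay within 1 of background on the log2 scale.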
